A study of Mus musculus with 9 samples.

Results

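Genes for calcium-binding proteins that are used to mark retinal interneurons were followed here, namely *Calb2*, *Pvalb*, *Cabp1*, *Cabp2*, *Cabp5*, *Scgn*, *Necab1*, *Necab2*, *Hpca* and *Ncald*. They were taken by symbol from the expression tables of 9 whole-retina RNA-seq libraries, and all 10 of 10 symbols were found among the 25239 genes listed. The libraries came from the *Rbpms*-CreERT2 knock-in line, in which a P2A-CreERT2 cassette was joined to the end of the *Rbpms* coding sequence, so that the *Rbpms* locus, active in retinal ganglion cells, drives a tamoxifen-inducible Cre recombinase. All mice were C57BL/6J at P42 (postnatal day 42) and came from shared litters, with 3 wild type (+/+), 3 heterozygous (*Rbpms*-CreERT2/+, Cre/+) and 3 homozygous (*Rbpms*-CreERT2/CreERT2, Cre/Cre) mice, and each library pooled the pair of retinas of 1 mouse. Whether these mice had received tamoxifen, how many founders the line rests on and the sex of each mouse were not stated in the sources used here. The comparison between genotypes asked whether the knock-in allele changed the retinal transcriptome. All 10 genes were measured in every library, and none passed an adjusted p of 0.05 in any comparison. In Cre/Cre retinas 9 of the 10 had a fold change below 1, as did 57.7% of all genes tested. The same held for 10 of 10 amacrine, 10 of 10 bipolar, 10 of 10 ganglion and 3 of 4 horizontal cell marker genes. The mean level of *Cabp2*, the least abundant of the 10, was 70.1% of that in +/+ retinas as deposited.

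Calcium entering a neuron is read and buffered by proteins that carry EF-hands, a helix, a loop and a helix in which the acidic and polar side chains of the loop hold 1 calcium ion. Buffers such as calretinin (*Calb2*) and parvalbumin (*Pvalb*) shape how far and how long a calcium signal spreads, whereas sensors such as the CaBP proteins, hippocalcin (*Hpca*) and neurocalcin delta (*Ncald*) change shape when loaded and act on channels, enzymes or membranes. Because retinal cell classes use different members, antibodies to these proteins have long served to tell interneurons apart. In mouse, calretinin marks many amacrine cells and a set of ganglion cells, secretagogin (*Scgn*) marks cone bipolar cells, and CaBP5 (*Cabp5*) marks rod bipolar cells and some cone bipolar cells. Parvalbumin in the mouse retina is found mainly in ganglion cells.

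The loop that all of these proteins share is printed here for 6 of the genes, because it is the feature by which the family is defined. Each is the 36 bases of coding sequence of 1 EF-hand loop, from the GENCODE transcript on mm10, written on the coding strand from 5′ to 3′. Capitals mark the codons of loop positions 1, 3, 5, 7, 9 and 12, which carry the calcium-coordinating residues. Loops were numbered from the start of the protein among those matching the PROSITE EF-hand pattern.
Calb2 loop 2, chr8:110154653-110154688, minus strand: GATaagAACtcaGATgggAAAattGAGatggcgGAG
Pvalb loop 1, chr15:78202526-78202561, minus strand: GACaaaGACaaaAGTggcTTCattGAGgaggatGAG
Cabp2 loop 1, chr19:4085585-4085620, plus strand: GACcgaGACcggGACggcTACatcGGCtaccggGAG
Scgn loop 1, chr13:23974814-23974849, minus strand: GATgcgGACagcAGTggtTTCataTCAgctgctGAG
Hpca loop 2, chr4:129118382-129118417, minus strand: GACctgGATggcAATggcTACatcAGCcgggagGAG
Ncald loop 2, chr15:37397075-37397110, minus strand: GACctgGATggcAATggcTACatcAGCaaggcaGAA
Each of these 6 loops lies within a single coding exon. The printed *Hpca* and *Ncald* loops shared 31 of 36 bases (86.1%), whereas loops 1 and 3 of the pair shared 24 (66.7%) and 25 (69.4%), and their whole coding sequences shared 458 of 582 bases (78.7%).

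By the same pattern *Calb2* had 5 loops in 271 residues and *Scgn* 4 in 276, *Cabp1*, *Cabp2*, *Cabp5*, *Hpca* and *Ncald* had 3 each, *Pvalb* and *Necab2* had 2 each, and *Necab1* had 1 in 352 residues. Between the whole transcripts of *Hpca* and *Ncald*, untranslated parts included, the longest run of identical bases was 46. Against the transcripts of the 29 other EF-hand genes compared, no member shared a longer run, which is well under the read length of 150 bases. Genes outside these lists were not searched. All 10 genes had a single line in every table. *Calb2* (chr8, 110142526 to 110168212, minus strand) and *Necab2* (chr8, 119446719 to 119472635, plus strand) lie on the same chromosome, as do *Hpca* (chr4, 129111570 to 129121925, minus strand) and *Necab1* (chr4, 14952245 to 15149131, minus strand). *Pvalb* (chr15, 78191112 to 78206400, minus strand) and *Ncald* (chr15, 37366175 to 37792428, minus strand) share another. *Cabp1* (chr5, 115168691 to 115194381, minus strand), *Cabp2* (chr19, 4082488 to 4087339, plus strand), *Cabp5* (chr7, 13398155 to 13408878, plus strand) and *Scgn* (chr13, 23953457 to 23991214, minus strand) each lie on a chromosome with no other member. Overlaps with other genes in mm10 were found for 3 members. *Ncald* holds *Gm15941* on its own strand within 11532 bases and *4930447A16Rik* on the other strand, while *Necab1* overlaps *Gm11837* by 786 bases and *Hpca* overlaps *Tmem54* by 57 bases, both on the opposite strand. The library kit kept strand, but the strand setting used in counting was not given, so the values of these 3 genes could include reads of their neighbours.

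The depth of the libraries was similar. The ratio of coverage to FPKM in the tables gave 4.05 to 4.65 aligned gigabases per library, in reads of 150 bases. *Rbpms*, the targeted gene, followed the labels, with 38.4 to 43.4 TPM (transcripts per 1000000, a level per transcript length whose sum is the same in each library) in +/+ retinas, 31.3 to 33.1 TPM in Cre/+ and 19.1 to 24.2 TPM in Cre/Cre. Markers of amacrine, bipolar, horizontal and Müller cells were present in every library. The library of Cre/Cre replicate 1 stood apart. The ribosomal RNA gene *Rn45s* took 9.21% of its TPM, against 0.0827% to 0.336% in the other 8 libraries, which lowers the TPM of every other gene in that library. The Cre/Cre against +/+ estimate of each member is therefore given with and without it. In bulk tissue, fewer cells of a type and less RNA per cell cannot be told apart.

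**Figure D1:**
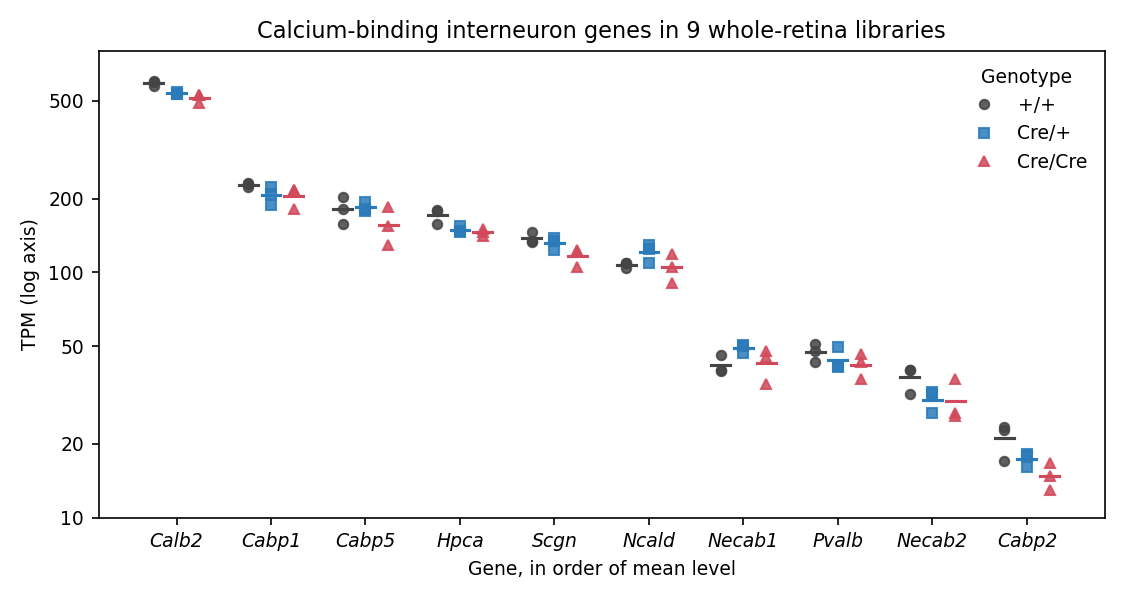
Level of each of the 10 genes in TPM (log axis), with 1 point per library and a bar at the mean of each genotype. *Calb2* stands between 489 and 599.5 TPM and *Cabp2* between 13.0 and 23.5 TPM, and the points of the 3 genotypes lie close together beside the distance between these genes.

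*Calb2* was the most abundant of the 10, with a mean of 547 TPM over the 9 libraries, and lay at the 98.7th percentile of all genes tested. *Cabp1* (213 TPM), *Cabp5* (174 TPM), *Hpca* (156 TPM), *Scgn* (129 TPM) and *Ncald* (111 TPM) followed. A lower tier held *Necab1* (44.6 TPM), *Pvalb* (44.5 TPM), *Necab2* (32.5 TPM) and *Cabp2* (17.8 TPM). In this order 3 pairs of neighbours were separated without overlap over all 9 libraries. *Calb2* was 2.39 to 2.82 times *Cabp1*, *Ncald* was 2.18 to 2.74 times *Necab1*, and *Necab2* was 1.61 to 2.47 times *Cabp2*. *Necab1* and *Pvalb* did not differ beyond their spread, since *Necab1* was the higher in 6 of 9 libraries. Within the +/+ libraries alone, the neighbours that overlapped were *Cabp5* with *Hpca* and *Necab1* with *Pvalb*. *Calb2* alone made up 36.0% to 38.9% of the TPM of the 10 genes, and the highest member was 25.4 to 37.6 times the lowest within a library. Summed over the 10 genes, TPM came to 1563, 1579 and 1551 in +/+ replicates, 1447, 1486 and 1479 in Cre/+ replicates and 1256, 1443 and 1415 in Cre/Cre replicates, so every knock-in library was below every +/+ library.

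Among the calcium buffers, *Calb2* was the steadiest. Its level was 576, 596 and 599.5 TPM in +/+ replicates 1 to 3, 532, 535 and 543 TPM in Cre/+ and 489, 528 and 526 TPM in Cre/Cre. All 6 knock-in libraries were below all 3 +/+ libraries, and the Cre/Cre libraries were also all below the Cre/+ libraries. The mean was 591 ± 12.6 TPM (SD, n = 3) in +/+, 536 ± 5.60 TPM in Cre/+ (90.8% of +/+) and 514 ± 22.1 TPM in Cre/Cre (87.1% of +/+). In the limma fit over all genes, on log2(TPM + 1), the log2 fold change was -0.14 (SE 0.067, adjusted p = 0.467) for Cre/+ and -0.20 (SE 0.067, adjusted p = 0.594) for Cre/Cre, so neither passed. The 95% interval of the latter, -0.34 to -0.06, corresponds to a difference in level of -21.1% to -3.97%. Without Cre/Cre replicate 1 the estimate was -0.16.

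*Scgn*, which encodes secretagogin, a calcium sensor linked to vesicle release in endocrine cells and neurons, gave 146, 134 and 133 TPM in +/+, 134, 138 and 124 TPM in Cre/+ and 105, 124 and 121 TPM in Cre/Cre. The Cre/Cre libraries were all below the +/+ libraries, whereas the Cre/+ libraries overlapped them. The means were 138 ± 7.29, 132 ± 7.38 and 117 ± 9.99 TPM (SD, n = 3). The log2 fold change in Cre/Cre was -0.24 (SE 0.082, limma adjusted p = 0.620), and -0.17 without Cre/Cre replicate 1. *Pvalb*, the buffer of fast-firing neurons and fast muscle, was at 43.1, 47.7 and 51.1 TPM in +/+, 41.4, 41.3 and 49.7 TPM in Cre/+ and 36.6, 46.5 and 43.1 TPM in Cre/Cre. The 3 genotypes overlapped, with log2 fold changes of -0.10 (SE 0.10) in Cre/+ and -0.17 (SE 0.10) in Cre/Cre. Leaving out 1 library moved the Cre/+ estimate between -0.19 (without Cre/+ replicate 3) and -0.04 (without +/+ replicate 3), and the Cre/Cre estimate between -0.24 and -0.08 (without Cre/Cre replicate 1). Since *Pvalb* is also a muscle gene, 8 skeletal muscle genes were summed, and they gave 20.8 to 25.6 TPM in +/+, 15.5 to 18.5 TPM in Cre/+ and 14.6 to 20.7 TPM in Cre/Cre. Both knock-in ranges of this sum lay below the +/+ range. Of the 8, *Myh4*, *Tnnt3* and *Tnni2* never reached 1 TPM, and *Myh4* was listed at 0 in all libraries except Cre/Cre replicate 3, at 0.0397 TPM. Of the 5 tested, 2 were lower at an unadjusted limma p under 0.05 in Cre/+ (5.82% of all genes) and 2 in Cre/Cre (5.39%). None of them passed an adjusted p of 0.05, and the part of muscle in the *Pvalb* values was not tested.

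The CaBP proteins resemble calmodulin and adjust voltage-gated calcium channels. *Cabp1* was at 231, 229 and 223 TPM in +/+, 189, 224 and 208 TPM in Cre/+ and 181, 216 and 217 TPM in Cre/Cre. The Cre/Cre libraries lay below the narrow +/+ range, while Cre/+ replicate 2 fell inside it. The mean was 228 ± 3.97 TPM in +/+, 207 ± 17.6 TPM in Cre/+ and 205 ± 20.8 TPM in Cre/Cre (SD, n = 3), and the spread within each knock-in group was thus near the size of the difference. Its log2 fold change in Cre/Cre was -0.16 (SE 0.087, limma adjusted p = 0.780), and -0.07 without Cre/Cre replicate 1. In Cre/+ it was -0.14 (SE 0.087), and -0.08 without Cre/+ replicate 1.

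*Cabp2*, whose product keeps the presynaptic calcium channels of inner hair cells available, had the lowest level of the 10 and the largest fold difference in Cre/Cre. It was at 17.1, 23.5 and 22.8 TPM in +/+, 17.9, 18.2 and 16.1 TPM in Cre/+ and 13.0, 14.8 and 16.7 TPM in Cre/Cre. The Cre/Cre libraries were all below the +/+ libraries, but +/+ replicate 1 was only just above the highest Cre/Cre library and lay below 2 of the 3 Cre/+ libraries. The means were 21.2 ± 3.53, 17.4 ± 1.11 and 14.8 ± 1.83 TPM (SD, n = 3). The log2 fold change was -0.26 (SE 0.13, limma adjusted p = 0.470) in Cre/+ and -0.48 (SE 0.13, limma adjusted p = 0.542) in Cre/Cre. The 95% interval of the Cre/Cre difference ran from -0.75 to -0.21, a difference in level of -40.5% to -13.4%, and its unadjusted limma p of 0.00178 ranked 47th among 15198 genes. The latter was -0.39 without Cre/Cre replicate 1. The Cre/+ estimate ran from -0.40, without +/+ replicate 1, to -0.18 when 1 library was left out.

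*Cabp5* was at 203, 181 and 158 TPM in +/+, 193, 181 and 178 TPM in Cre/+ and 129.6, 184 and 154 TPM in Cre/Cre. Its +/+ and Cre/Cre ranges overlapped, and the Cre/+ libraries all lay within the +/+ range. The log2 fold change was 0.03 (SE 0.12) in Cre/+ and -0.22 (SE 0.12) in Cre/Cre, the latter being -0.09 without Cre/Cre replicate 1 and -0.35 without Cre/Cre replicate 2.

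The NECAB proteins carry EF-hands at one end and a domain of another kind at the other, and *Necab2* is known to bind G protein-coupled receptors. *Necab1* was at 46.3, 39.9 and 39.6 TPM in +/+, 50.1, 46.8 and 50.5 TPM in Cre/+ and 35.0, 47.9 and 45.3 TPM in Cre/Cre. The Cre/+ libraries were all above the +/+ libraries, and the Cre/Cre libraries spanned the +/+ range. *Necab2* was at 31.9, 40.1 and 40.1 TPM in +/+, 32.4, 31.8 and 26.8 TPM in Cre/+ and 25.9, 36.7 and 26.8 TPM in Cre/Cre, with overlap between all genotypes. The log2 fold changes of *Necab1* were 0.23 (SE 0.11, limma adjusted p = 0.462) in Cre/+ and 0.02 (SE 0.11, limma adjusted p = 0.990) in Cre/Cre, the latter being 0.15 without Cre/Cre replicate 1. For *Necab2* they were -0.29 (SE 0.13, limma adjusted p = 0.460) and -0.33 (SE 0.13, limma adjusted p = 0.664), and without Cre/Cre replicate 1 the latter was -0.24. Both genes thus had estimates of opposite sign in Cre/+.

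Hippocalcin and neurocalcin delta are neuronal calcium sensors, which expose a fatty acid chain on binding calcium and move to membranes. *Hpca* was at 158, 178 and 179 TPM in +/+, 147, 146 and 155 TPM in Cre/+ and 150.2, 140.4 and 146 TPM in Cre/Cre. All 6 knock-in libraries were below all 3 +/+ libraries, and Cre/Cre replicate 1 was the highest of its group, not the lowest. The means were 172 ± 11.9 TPM in +/+, 149 ± 4.72 TPM in Cre/+ (86.9% of +/+) and 146 ± 4.93 TPM in Cre/Cre (84.8% of +/+; SD, n = 3). The log2 fold changes were -0.20 (SE 0.075, limma adjusted p = 0.404) and -0.23 (SE 0.075, limma adjusted p = 0.581), and the Cre/Cre estimate was -0.26 without Cre/Cre replicate 1. *Ncald* was at 109, 109 and 104 TPM in +/+, 109, 125 and 129 TPM in Cre/+ and 90.7, 106 and 119 TPM in Cre/Cre. Its Cre/+ libraries lay above the +/+ range, replicate 1 only just, and its Cre/Cre libraries lay on both sides of it. The log2 fold changes of *Ncald* were 0.16 (SE 0.095, limma adjusted p = 0.525) in Cre/+ and -0.04 (SE 0.095, limma adjusted p = 0.973) in Cre/Cre, the latter being 0.06 without Cre/Cre replicate 1.

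**Figure D2:**
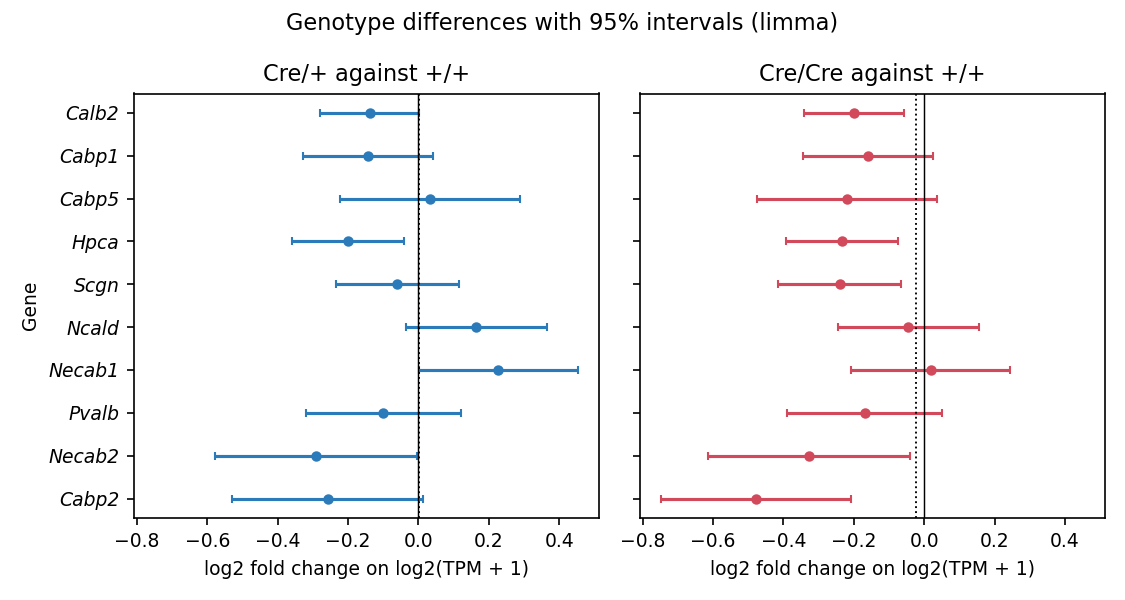
Log2 fold change on log2(TPM + 1) of each gene, in order of mean level, with its 95% interval from limma, for Cre/+ against +/+ (left) and Cre/Cre against +/+ (right). The dotted line marks the median over all 15198 genes tested; for *Hpca* and *Necab2* the interval lay below 0 in both panels, for *Calb2*, *Scgn* and *Cabp2* in the right panel, and for *Necab1* above 0 in the left panel.

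Set side by side, the heterozygous retinas showed members on both sides of wild type. For Cre/+ against +/+, 0 of 10 members passed an adjusted p of 0.05 in limma, where 0.00658% of all genes tested passed. At an unadjusted p under 0.05 there were 2 lower (*Hpca*, *Necab2*) and 1 higher (*Necab1*), against 5.82% and 4.9% of all genes. The ranges of the libraries did not overlap for *Calb2* and *Hpca* in the lower direction (2 of 10, against 10.3% of all genes) and for *Necab1* and *Ncald* in the higher direction (2 of 10, against 11.9%). After the median-ratio rescaling described with the homozygous retinas, these were 2 of 10 (11.2%) and, with *Necab1* alone, 1 of 10 (12%). The median log2 fold change was -0.12 over the members and 0.00 over all genes, and 7 of 10 members were below 0, against 49.6%. Without Cre/+ replicate 1 the members' median was -0.08, with 8 of 10 below 0, against 49.8% of all genes. The count of 3 at an unadjusted p under 0.05 was 0 when +/+ replicate 2 or +/+ replicate 3 was left out, 1 without Cre/+ replicate 2 or Cre/+ replicate 3, and 6 without Cre/Cre replicate 1, which enters through the shared spread. With *Rn45s* and the short RNA genes removed from the TPM sum it was 7. Of all 15198 genes, 2486 were under that p without Cre/Cre replicate 1, against 1628 with all libraries. The share of all genes was not counted for the other fits named here.

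In homozygous retinas the estimates leaned to the lower side. For Cre/Cre against +/+, 0 of 10 members passed an adjusted p of 0.05 in limma (0.00658% of all genes, which is *Rbpms*), and 5 were lower at an unadjusted p under 0.05, namely *Calb2*, *Cabp2*, *Scgn*, *Necab2* and *Hpca*, against 5.39% of all genes, with none higher (1.58%). The libraries did not overlap, with Cre/Cre lower, for *Calb2*, *Cabp1*, *Cabp2*, *Scgn* and *Hpca* (5 of 10, against 8.05%), and for no member with Cre/Cre higher (2.7%). With a female-specific transcript, *Xist*, added as a covariate, 3 rather than 5 members had an unadjusted p under 0.05, and the members' median was -0.13. The share of all genes at that p was not counted with *Xist*. In that fit 51.9% of all genes were below 0, with a median of -0.01. With genotype as the only term, the median log2 fold change was -0.21 over the members and -0.02 over all genes, with 9 of 10 and 57.7% below 0. Without Cre/Cre replicate 1 the members' median was -0.13, 8 of 10 were below 0 against 43.8% of all genes, and again 5 of 10 did not overlap in the lower direction (9.81%) and none in the higher (15.9%). A median-ratio rescaling of the libraries, in which the median gene of each is set equal, gave a members' median of -0.18, with 49.0% of all genes below 0 and 4 of 10 members not overlapping, *Hpca* no longer among them (7.18% lower and 6.36% higher among all genes). With *Rn45s* and the short RNA genes removed from the TPM sum, 4 of 10 did not overlap (5.29% lower and 7.87% higher among all genes). The 2 comparisons with +/+ share the same 3 wild type libraries.

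In the direct comparison of Cre/Cre with Cre/+ retinas, all 10 estimates were below 0, against 59.2% of all genes, and ranged from -0.25 for *Cabp5* to -0.02 for *Cabp1*. None passed an adjusted p of 0.05 in limma (0.0132% of all genes), and *Scgn* (-0.18) and *Ncald* (-0.21) were lower at an unadjusted p under 0.05 (4.2% of all genes), with none higher (2.38%). That count of 2 was 0 without +/+ replicate 2, Cre/+ replicate 2 or Cre/Cre replicate 1, 1 without +/+ replicate 3, Cre/+ replicate 1 or Cre/+ replicate 3, 3 without +/+ replicate 1 or Cre/Cre replicate 2, and 4 without Cre/Cre replicate 3. Of all 15198 genes, 261 were lower and 494 higher at that p without Cre/Cre replicate 1. The share was not counted for the other left-out libraries. Without Cre/Cre replicate 1, 7 of 10 estimates were below 0, against 44.0% of all genes. The members' median was then -0.07 rather than -0.12, and that of all genes 0.02 rather than -0.03. Without Cre/Cre replicate 2 the members' median was -0.20 and that of all genes -0.06. Only the *Calb2* libraries did not overlap (1 of 10 lower, against 7.23%, and none higher, against 4.76%). Fitted as a trend per knock-in allele, *Cabp2* had the steepest slope, -0.24 per allele (limma adjusted p = 0.653), followed by *Necab2* (-0.16), *Hpca* (-0.12), *Scgn* (-0.12) and *Calb2* (-0.10). These 5 had an unadjusted p under 0.05 (against 4.82% of all genes in the lower direction and 1.42% in the higher), and none of the 10 trends passed in limma (0.00658%). Without Cre/Cre replicate 2 the count of 5 was 8, and without Cre/Cre replicate 1 it was 4 and the members' median slope -0.06 rather than -0.10. The median slope of all genes was then 0.01 rather than -0.01. Of all 15198 genes, 554 had a lower and 866 a higher trend at that p without Cre/Cre replicate 1. The share was not counted without Cre/Cre replicate 2.

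**Figure D3:**
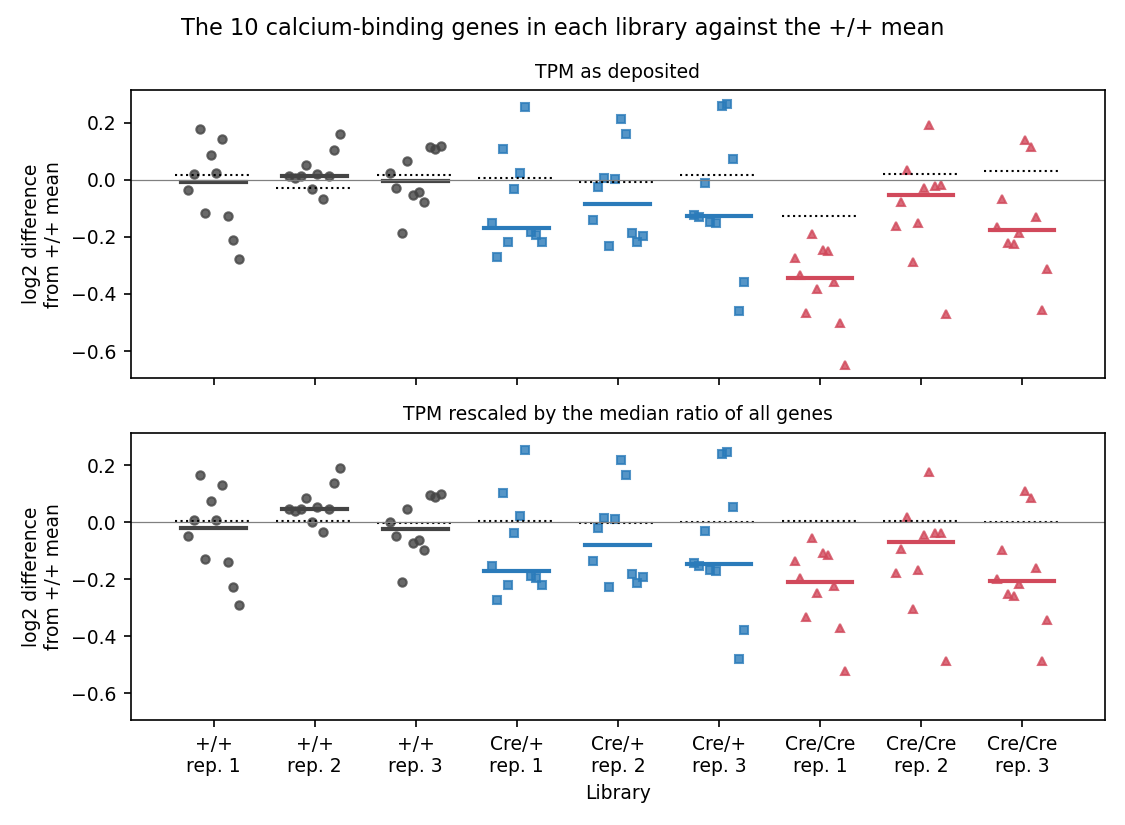
Log2 difference of each of the 10 genes from its +/+ mean in each library, as deposited (top) and after median-ratio rescaling (bottom), with 1 point per gene, a solid bar at the median of the 10 and a dotted bar at the median of all genes tested. The 10 genes of Cre/Cre replicate 1 all lie below 0 in both panels, and its solid bar moves from -0.35 to -0.21.

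Cre/Cre replicate 1 held the lowest value of the 9 libraries for 9 of the 10 members, *Hpca* being the exception, against 38.6% of all genes. After the median-ratio rescaling it did so for 6 of 10 (12.3%), and with *Rn45s* and the short RNA genes taken out of the TPM sum for 6 of 10 (11.4%). Its members' median against the +/+ mean was -0.35 as deposited and -0.21 rescaled. Cre/Cre replicate 2 gave -0.05 and -0.07, and replicate 3 gave -0.18 and -0.21. On either scale, 10, 8 and 8 of 10 members were below the +/+ mean in the 3 Cre/Cre libraries. Of all genes, 77.0%, 45.1% and 43.5% were below it as deposited, and 49.1%, 49.0% and 49.8% after rescaling. In Cre/+ libraries the members numbered 7, 6 and 7 of 10, against 48.8%, 51.8% and 46.4% of all genes as deposited, with medians of -0.17, -0.08 and -0.13 as deposited.

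The cell classes that carry these proteins were followed through lists of other marker genes. Summed markers of amacrine cells were at 1446 to 1516 TPM in +/+, 1442 to 1531 TPM in Cre/+ and 1295 to 1478 TPM in Cre/Cre, with a median log2 fold change of -0.07 in Cre/Cre, where none of 10 passed in limma and 1 was lower at an unadjusted p under 0.05. Those of bipolar cells were at 1627 to 1867 TPM, 1705 to 1788.5 TPM and 1410 to 1665 TPM with a Cre/Cre median of -0.11, where none of 10 passed and 2 were lower at an unadjusted p under 0.05. Of all genes, 5.39% were lower at that p in Cre/Cre. In Cre/Cre, 10 of 10 amacrine and 10 of 10 bipolar estimates were below 0 (57.7% of all genes). With Cre/Cre replicate 1 left out, the lowest Cre/Cre sums were 1470.3 TPM for amacrine and 1626 TPM for bipolar markers, and the Cre/Cre medians were -0.01 and -0.06. In each of these 2 lists 6 of 10 estimates were then below 0 (43.8% of all genes). Summed markers of horizontal cells were at 21.2 to 23.3 TPM, 19.8 to 24.0 TPM and 18.1 to 20.8 TPM, with the Cre/Cre range below that of +/+. Their Cre/Cre median was -0.16, where none of 4 passed in limma and 1 was lower at an unadjusted p under 0.05 (5.39% of all genes). Without Cre/Cre replicate 1 the median was also -0.16. Markers of ganglion cells, which also express some of these proteins, were at 1561 to 1649 TPM in +/+, 1490 to 1548 TPM in Cre/+ and 1137 to 1373 TPM in Cre/Cre. In Cre/Cre retinas 8 of these 10 ganglion cell genes, *Rbpms* among them, were lower (unadjusted p under 0.05), against 5.39% of all genes. Of the 10, 1 (*Rbpms*) passed in limma, the median was -0.32 and 10 of 10 were below 0 (57.7% of all genes). Without Cre/Cre replicate 1 the ganglion cell sums of the remaining Cre/Cre libraries were 1373 and 1361 TPM. Of all 15198 genes, 544 were then lower at an unadjusted p under 0.05, and 6 of the 10 ganglion cell genes were. Among these 10 genes, 1 passed in limma, the median was -0.22 and 9 of 10 were below 0 (43.8% of all genes). Their Cre/Cre range lay below the other 2 genotypes, as did the members' own sum, and their part in the members' values was not tested. Blood genes were at 150.5 to 182 TPM, 92.5 to 105 TPM and 185 to 300.5 TPM, lens genes at 171 to 234 TPM, 16.2 to 189 TPM and 88.5 to 1145 TPM, and pigment epithelium genes at 19.6 to 48.8 TPM, 36.2 to 87.6 TPM and 27.6 to 50.1 TPM, each varying between libraries, and their part in the members' values was not tested either.

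**Figure D4:**
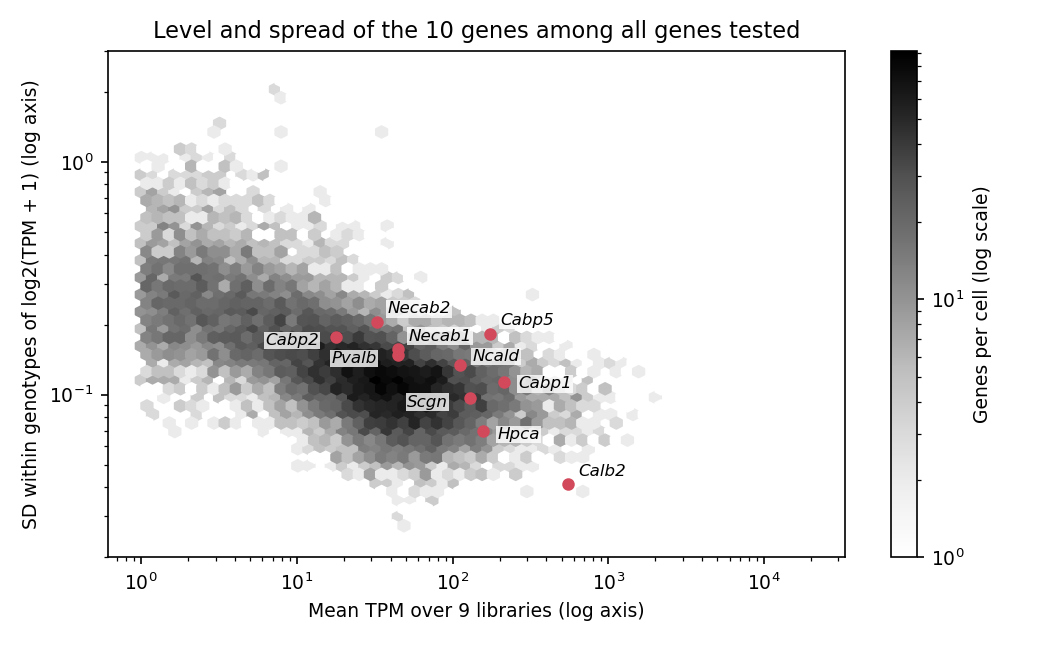
Mean TPM over 9 libraries against the SD of log2(TPM + 1) within genotypes, both on log axes, with the 15198 genes tested as shaded cells and the 10 calcium-binding genes as labelled points. *Calb2* lies at the lower edge of the cloud (SD 0.041), and *Necab2* (SD 0.21) has the largest SD of the 10.

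The members differed in how steady they were within a genotype. The SD of log2(TPM + 1) within genotypes was 0.041 for *Calb2*, at the 0.493th percentile of all genes tested, and 0.070 for *Hpca* (7.77th percentile). *Scgn* (0.097), *Cabp1* (0.11), *Ncald* (0.13), *Pvalb* (0.15) and *Necab1* (0.16) lay in the middle. *Cabp2* (0.18), *Cabp5* (0.18) and *Necab2* (0.21) were the most variable, with *Necab2* at the 78.4th percentile. The median was 0.14 over the members and 0.13 over all genes, and 0.11 over the 10867 genes with a mean of at least 10 TPM. For the 3 most variable members, the gene with the closest profile over the 9 libraries (smallest root mean square difference of centred log2 values among 15197 genes) was *Efna3* for *Cabp2* (0.055), *Acad10* for *Cabp5* (0.061) and *Tmem163* for *Necab2* (0.070). This likeness is a description over 9 libraries that share their genotypes.

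Related EF-hand genes outside the 10 were read the same way. Of 20 listed, among them calbindin, recoverin, the guanylate cyclase activators, the Kv channel-interacting proteins and the calmodulins, 19 were tested, and *Ocm*, the parvalbumin of outer hair cells, fell below the filter. None of the 19 passed in limma in any comparison, and 3 were lower at an unadjusted p under 0.05 in Cre/Cre against Cre/+ (4.2% of all genes). In Cre/+ none was under an unadjusted p of 0.05 (5.82% of all genes lower and 4.9% higher), and the median log2 fold change was -0.00. In Cre/Cre 2 of 19 were lower at an unadjusted p under 0.05 (5.39% of all genes), the median was -0.11 and 15 of 19 were below 0 (57.7%). These were 1 of 19, -0.04 and 14 of 19 without Cre/Cre replicate 1. In that fit 544 of 15198 genes were lower at that p and 43.8% were below 0. The most abundant were the photoreceptor sensors *Guca1b* (3115 TPM), *Rcvrn* (2263 TPM) and *Guca1a* (2113 TPM), which tie calcium to the recovery of the light response. The smallest p values in Cre/Cre belonged to *Rcvrn* (-0.14, limma adjusted p = 0.695), *Calm3* (-0.16, limma adjusted p = 0.698), a calmodulin gene, and *Vsnl1* (-0.17, limma adjusted p = 0.722), which encodes visinin-like 1, a sensor of the hippocalcin family.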

How the data were processed

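RNA from 9 whole-retina samples was sequenced from strand-specific, poly(A)-selected libraries. Per the study's methods and the labels, the authors used Trimmomatic for trimming, HISAT2 for alignment against mm10 and StringTie for quantification (versions not given in the sources used here). The deposited gene tables hold TPM, FPKM and coverage per gene, without read counts, so a count test was not run. TPM, as the authors deposited it, has the same sum in every library, so 1 dominant RNA lowers all other genes. FPKM in the deposited tables served as an alternative, and the deposited coverage served to estimate depth.

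TPM was summed by gene symbol. Genes with a mean of at least 1 TPM (15198 of 25239) were fitted with limma 3.58.1 in R 4.3.3 (trend and robust options) on log2(TPM + 1), with genotype as the only term and all 9 libraries. P-values were two-sided and were adjusted by Benjamini-Hochberg over all genes, and a gene was called at an adjusted p of at most 0.05. Fold changes on this scale understate those of low genes. Range overlap compared the lowest and highest library of each group. EF-hand loops were found in translated GENCODE coding sequences with Biopython 1.88. The members and all gene lists were chosen with earlier results of these data known. Genes named in the text were the 10 members, *Rbpms*, the nearest gene of the 3 most variable members and, among EF-hand relatives, those passing or otherwise the 3 most abundant and the 3 with the smallest p in Cre/Cre. Genes of other lists were named where a result turned on them, after their values were seen. Same-numbered samples were checked for pairing by the correlation of their deviations from group means over 10867 genes. Alternatives were another pseudocount, filters, scalings, FPKM, covariates, a replicate block and leaving out each library.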

Additional observations from a re-analysis of the deposited data

How the results depend on the processing

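No member passed an adjusted p of 0.05 under any alternative that was run. The number of genes passing among all tested did move. For Cre/+ against +/+ it was 1, and 0 with FPKM, 2 when only the compared genotypes were fitted and 1 to 5 when 1 library was left out. For Cre/Cre against +/+ it was 1, and 3 with a pseudocount of 0.1, 7 with FPKM, 5 when only the compared genotypes were fitted, 3 with *Xist* as a covariate, 0 with a fold of at least 2 and 1 to 4 when 1 library was left out. For Cre/Cre against Cre/+ it was 2, and 5 with a mean TPM of at least 5, 6 with FPKM or *Xist*, 1 to 8 when 1 library was left out, and 1 with no filter, median-ratio scaling, *Rn45s* and short RNAs removed, no robust prior or a fold of at least 2. For the trend it was 1, and 0 with a fold of at least 2 and 1 to 4 when 1 library was left out. The cause was not tested.

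With the replicate number as a block, 1 gene rather than 2 passed for Cre/Cre against Cre/+, no member passed, and the counts of genes passing in the other comparisons did not move. Members at an unadjusted p under 0.05 went from 3 to 2 for Cre/+ against +/+ and from 2 to 1 for Cre/Cre against Cre/+. The share of all genes at that p was not counted with the block. The deviations of 9 same-numbered pairs correlated at -0.24 to 0.25 and 1 exceeded 0.1, against 4 of 18 other pairs. Since each deviation is taken from a mean of only 3 libraries, this check cannot exclude that the numbers pair the samples.

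Estimates near 0 changed sign. For Cre/Cre against Cre/+, *Cabp1* was 0.019 with median-ratio scaling, 0.034 without *Rn45s* and short RNAs and 0.00359 with *Xist*, *Necab2* was 0.012 without *Rn45s* and short RNAs and 0.085 with *Xist*, and *Hpca* was 0.015 without *Rn45s* and short RNAs. For Cre/Cre against +/+, *Ncald* was 0.0066 without *Rn45s* and short RNAs (trend 0.0033), and *Necab1* was -0.029 with FPKM (trend -0.015). When 1 library was left out, *Cabp5* ran from -0.060 to 0.12 in Cre/+, *Necab1* from -0.067 to 0.15 and *Ncald* from -0.14 to 0.056 in Cre/Cre, and their trends from -0.025 to 0.088 and -0.050 to 0.038. Against Cre/+, *Pvalb* ran from -0.14 to 0.024, *Cabp1* from -0.080 to 0.071 and *Necab2* from -0.19 to 0.052. After median-ratio scaling, 1 member rather than 2 (*Necab1*) ranged above +/+ in Cre/+. The share of all genes below 0 in Cre/Cre against +/+, 57.7%, was 49.0% with median-ratio scaling, 42.1% without *Rn45s* and short RNAs and 75.0% with FPKM.

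The tables gave no counts, and 3 mice per genotype left wide intervals, that of *Cabp2* in Cre/Cre running from -0.75 to -0.21. P-values weigh the genotype differences against the spread between mice of the same genotype, which limma draws toward that of genes of similar level. The spread used was larger than the gene's own for *Calb2* and smaller than its own for *Cabp2*. Litter was not in the fit, because which of the mice shared a litter was not stated.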
